A study of Mus musculus with 14 samples.

Results

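The Mir206 and Mir133b locus of mouse chromosome 1 was examined in lists of ChIP sequencing (ChIP-seq) peaks, which are stretches of the genome where DNA pulled down with an antibody gave more reads than its background. Its members were all peaks that the authors' annotation gave to Mir206, to Mir133b or to Pkhd1, the neighboring gene that receives part of the peaks between both. The locus was selected on its peaks and scores in these same lists, so its values are a description and no test was run on them. The rule found 19 of the 10303 peaks of the series, and where peaks of different libraries shared at least 1 bp they were joined into regions, which gave 7 of 6557 regions. Mir206 received 9 peaks in 3 regions, Pkhd1 received 10 peaks in 4 regions, and Mir133b received 0 peaks.

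The libraries came from muscle stem cells (MuSCs), the resident progenitors of skeletal muscle, of adult mice labelled wild-type that carried a floxed mito-Dendra2 reporter and the Pax7-Cre(ERT2) driver, so that the fluorescent reporter marked Pax7-expressing cells and their progeny after tamoxifen (75 mg/kg on 5 days). Quiescent cells (QSCs) were sorted as CD34+ from a tibialis anterior muscle that had received saline, and activated cells (ASCs) as CD34- from the opposite muscle 2 days after 50 µL of 1.2% BaCl2. State, injury and the CD34 gate therefore cannot be told apart. MyoD and MyoG were each pulled down in 3 libraries per state, and 2 input libraries were not analysed here.

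MicroRNAs are short RNAs that pair with messenger RNAs through their seed (bases 2 to 8) and lower their output. The miR-206 and miR-133b precursors are neighbors on the plus strand and belong to the muscle microRNAs, together with the related miR-1 and miR-133a. MyoD and MyoG are basic helix-loop-helix factors that drive the myogenic program and bind the E-box, a short DNA motif. Lincmd1 is the long noncoding RNA whose transcript spans the stretch of both microRNAs and is known as a decoy for miR-133 in differentiating myoblasts. Pkhd1 encodes fibrocystin, a membrane protein of cilia in kidney and bile duct cells that is best known from polycystic kidney disease.

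The mature products of the locus are shown first, because the peaks described here lie next to the genes that make them. The sequences are those of RefSeq (GRCm38.p6, the assembly of mm10), and the capitals mark the seed.
miR-206-3p: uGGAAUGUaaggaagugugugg
miR-206-5p: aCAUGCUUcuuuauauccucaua
miR-133b-3p: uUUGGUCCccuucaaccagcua
miR-133b-5p: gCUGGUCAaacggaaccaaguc
The seeds of the 3p arms differed between both microRNAs, so that each defines its own set of possible targets. As background, the main products of the miR-1 genes share the seed of miR-206-3p, and miR-133a shares that of miR-133b-3p, so that these relatives have largely common targets. The 5p arm of the related Mir1a-1 is shown for comparison with miR-206-5p, and its seed is again in capitals.
miR-1a-1-5p: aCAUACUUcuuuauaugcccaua
Over 23 bases, counted from the 5′ end of miR-206-5p, the 2 arms differed at 3 positions (G5A, C17G and U19C), of which the first lies in the seed.

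The precursors are printed with both mature arms in capitals, as the genomic anchors of all distances below. Mir206 (ENSMUSG00000065559 in the lists) occupies chr1:20679010-20679082 and Mir133b chr1:20682769-20682887, 3.76 kb further on.
Mir206: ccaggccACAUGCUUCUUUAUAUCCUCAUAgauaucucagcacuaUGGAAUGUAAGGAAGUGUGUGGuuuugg
Mir133b: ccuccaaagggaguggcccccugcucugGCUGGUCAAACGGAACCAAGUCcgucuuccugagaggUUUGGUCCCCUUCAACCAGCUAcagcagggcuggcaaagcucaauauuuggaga
RefSeq places Lincmd1 at chr1:20669882-20682958, so that its transcript unit starts 9.13 kb before the Mir206 hairpin and 12.9 kb before the Mir133b hairpin. The lists name no peak after Lincmd1. Pkhd1 (ENSMUSG00000043760) lies on the minus strand at chr1:20057779-20618082, and its start faces the microRNAs from a distance of 60.9 kb.

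All 19 peaks of the locus came from the ASC MyoD libraries. ASC MyoD replicate 1 listed 7 of them, replicate 2 listed 6 and replicate 3 listed 6. The ASC MyoG libraries, the QSC MyoD libraries and the QSC MyoG libraries listed 0. Of the 7 regions, 6 had a peak in all 3 ASC MyoD libraries and 1 in replicate 1 alone. A region was called ASC-specific when it had a peak in at least 2 of 3 ASC libraries and in no QSC library of the same antibody, and 6 of the 7 regions were ASC-specific for MyoD, against 44.0% of all 4488 MyoD regions. The share with a peak in all 3 ASC libraries and no QSC library was 24.5% of all MyoD regions. For MyoG, the 7 regions had 0 peaks in either state, so they are not among the 2198 regions with a MyoG peak, of which 9.42% were ASC-specific for MyoG, and that share is no background for them.

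**Figure D1:**
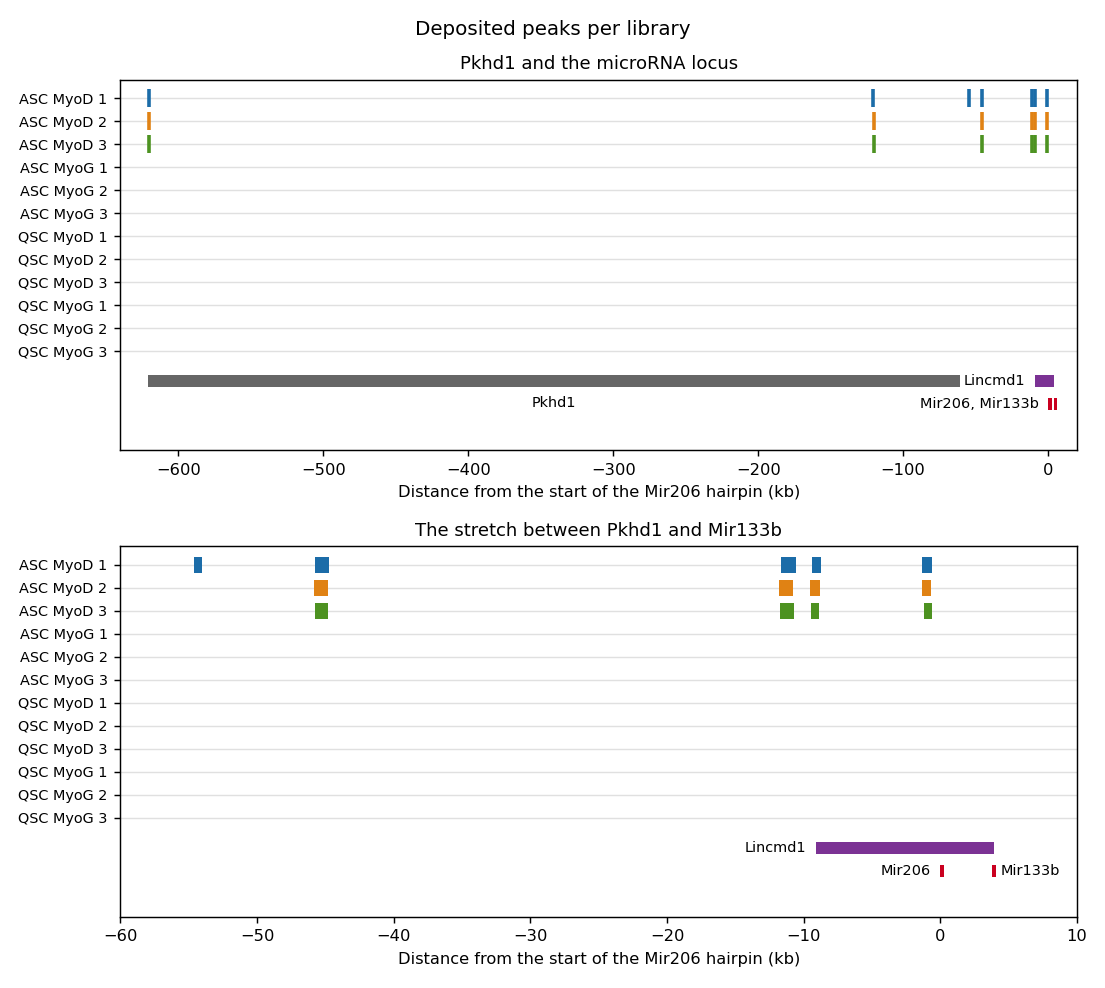
Peaks of the 12 libraries (rows) against the distance from the start of the Mir206 hairpin in kb. The upper panel marks the center of each peak along Pkhd1 and the microRNA locus, and the lower panel draws peaks to scale between the start of Pkhd1 and Mir133b. Only the 3 ASC MyoD rows hold peaks, and 6 of the 7 positions are filled in all 3 of them.

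Peak number sets what an empty list can show. The ASC MyoD lists held 2262 to 2652 peaks, the ASC MyoG lists 605 to 916, the QSC MyoD lists 139 to 174 and the QSC MyoG lists 120 to 167. The lists hold no read counts, so the depth behind them is unknown, and a site that missed the lowest listed score of 50.0 cannot be told from a site without binding. On chromosome 1 outside the locus, the QSC MyoD peak nearest to it lay 11.1 Mb away in each of the 3 libraries, near Gm7910. The nearest QSC MyoG peaks lay 8.20 Mb, 1.65 Mb and 9.46 Mb away in replicates 1, 2 and 3. The nearest ASC MyoG peaks lay 1807, 750.4 and 3933 kb away. On all of chromosome 1, the QSC MyoD lists held 9, 9 and 5 peaks and the QSC MyoG lists 6, 14 and 20. The ASC MyoG lists held 56, 26 and 27 there. With so few peaks, large distances say little about the locus itself. Presence in the ASC MyoD libraries alone was common: 93.2% of the 1107 regions with a peak in all 3 ASC MyoD libraries had no peak in the other 9. Of these 1107 regions, 5.69% had a peak in an ASC MyoG library and 0.542% in a QSC MyoD library.

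The region at the start of Lincmd1 had the highest mean score of the locus and the smallest spread in score. The score is MACS's p-value on a log10 scale, multiplied by -10, so that a higher score stands for a smaller p-value. This region (region 6 in order along the chromosome, chr1:20669502-20670252) was annotated as distal intergenic and given to Mir206. Its scores were 175, 159 and 139 in ASC MyoD replicates 1, 2 and 3, a mean of 158 ± 18.1 (SD, n = 3). The 3 values lay close together, and each was far above the median score of its list (75.1, 72.1 and 68.9). The percentile rank of the peak among all peaks of its own list was 91.5%, 90.6% and 88.6%.

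The peaks of region 6 covered the RefSeq start of Lincmd1 in all 3 libraries. They began 269, 380 and 339 bp before the start and ended 370, 301 and 279 bp after it. Their centers lay 50.5, 39.5 and 30.0 bp from the start, the first on its downstream side and the others upstream. The center of the joined region lay 5 bp from the start.

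The promoter of Lincmd1 is printed because the peaks lie on it. The 300 bases from 250 before to 50 after the start, chr1:20669632-20669931 on the plus strand (GRCm38.p6), lay inside the 549 bp shared by the peaks of all 3 libraries. Capitals mark 2 E-boxes (CANNTG) and a match to the MEF2 consensus between them.
Lincmd1 promoter: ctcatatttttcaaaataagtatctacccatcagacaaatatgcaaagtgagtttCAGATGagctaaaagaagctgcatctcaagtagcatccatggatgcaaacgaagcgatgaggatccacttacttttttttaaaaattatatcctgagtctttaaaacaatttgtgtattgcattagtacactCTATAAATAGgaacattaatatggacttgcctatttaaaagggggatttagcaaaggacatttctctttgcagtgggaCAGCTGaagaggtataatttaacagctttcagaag
The motifs were searched on both strands, and CANNTG covers CAGCTG, the form preferred by MyoD. The first E-box in the printed strand is CAGATG, which begins 195 bp before the start. The other is CAGCTG, which begins 15 bp after the start base, and its center lay 33.0, 57.0 and 47.5 bp from the peak centers of replicates 1, 2 and 3. The MEF2 match is CTATAAATAG and begins 63 bp before the start, and it also holds TATAAA, the core of a TATA box. MEF2 factors act together with MyoD at muscle genes.

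As a background, CAGCTG was held by 16.3% of the 32817 RefSeq promoters of the same length. CANNTG was held by 72.3% of them, the MEF2 consensus by 3.19% and TATAAA by 13.6%. Of all promoters, 39.7% held at least as many CANNTG matches as the Lincmd1 promoter. Among the 132 promoters that lay wholly inside an ASC MyoD region found in at least 2 libraries, 59.1% held CAGCTG, 93.2% CANNTG, 9.85% the MEF2 consensus and 12.1% TATAAA. Motif matches are letters in a window, and whether MyoD touched them was not tested.

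**Figure D2:**
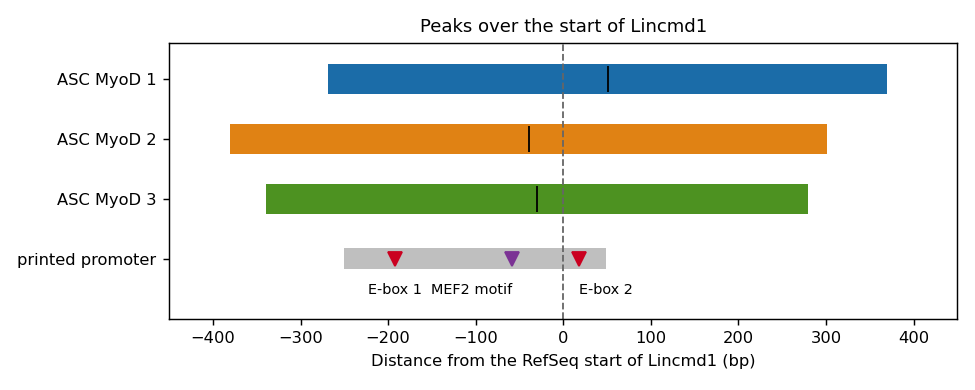
Peaks of the 3 ASC MyoD libraries (bars, black tick at the center) against the distance from the RefSeq start of Lincmd1 in bp, with the printed promoter in gray. Triangles mark the centers of the E-boxes and of the MEF2 match; all 3 bars cross the start (dashed line) and cover the printed promoter.

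A region 1.08 kb further upstream had the largest SD in score units, while the ratio of highest to lowest score was 1.95 there, 2.02 in region 2 and 2.03 in region 7, and the SD of the percentile rank was 9.57, 24.4 and 22.4 points. Region 5 (chr1:20667234-20668420) was annotated as distal intergenic, was given to Mir206 and had its center 2.06 kb before the start of Lincmd1 and 11.2 kb before the Mir206 hairpin. Its scores were 117, 121 and 229 in replicates 1, 2 and 3 (mean 156 ± 63.2, SD, n = 3). Replicate 3 stood apart from the other 2, and its peak was the highest of the locus, with 60 of 2296 peaks of its list scoring higher. Without replicate 3 the mean was 119.

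The promoter region of Mir206 had lower scores than region 6, while its score range overlapped those of regions 1, 2, 4 and 5. In replicate 1 only region 6 scored above it. Region 7 (chr1:20677643-20678371), the only one of the locus that the annotation places within 1 kb of a start site, ended 639 bp before the Mir206 hairpin and lay inside the transcript unit of Lincmd1. Its scores were 132, 109.9 and 65.1 in replicates 1, 2 and 3 (mean 102 ± 34.0, SD, n = 3). Replicate 3 was the lowest and fell to the 43.4 percentile of its list, below the list median, while replicates 1 and 2 reached 84.4% and 79.4%. Region 6 scored above region 7 in each of the 3 libraries, and the ranges of both did not overlap.

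The regions given to Pkhd1 were a pair before its start, nearer to Pkhd1 than to Mir206, and a pair within the gene. Region 4 (chr1:20633161-20634261) was distal intergenic, 15.6 kb before the start of Pkhd1 and 45.3 kb before Mir206. Its scores were 126, 197 and 129 (mean 151 ± 39.9, SD, n = 3), of which replicate 2 was the highest and the others lay close together. The percentile ranks were 82.4%, 94.8% and 86.4%. Region 3 (chr1:20624370-20624974), 6.59 kb before the start of Pkhd1, had a single peak in replicate 1 with a score of 65.2, at the 35.2 percentile of that list and the lowest of the 7 peaks of the locus there. The Pkhd1 promoter itself was 6.06 kb from region 3 and had no peak in any of the 12 lists.

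Within Pkhd1 the regions lay far apart. Region 2 (chr1:20558034-20559157) was annotated to exon 21 of 67 of ENSMUST00000088448 and lay 59.5 kb inside the gene. Its scores were 125, 67.6 and 61.8 (mean 84.7 ± 34.8, SD, n = 3), and replicate 1 stood above the other 2, which were below the median of their lists. Without replicate 1 the mean was 64.7. Region 1 (chr1:20057912-20059001) was annotated to the 3′ untranslated region at the far end of the gene, 621 kb from Mir206. Its scores were 124, 139.8 and 77.0 (mean 114 ± 32.6, SD, n = 3), with replicate 3 the lowest. A gap of 499 kb without a listed peak separated region 1 from region 2.

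**Figure D3:**
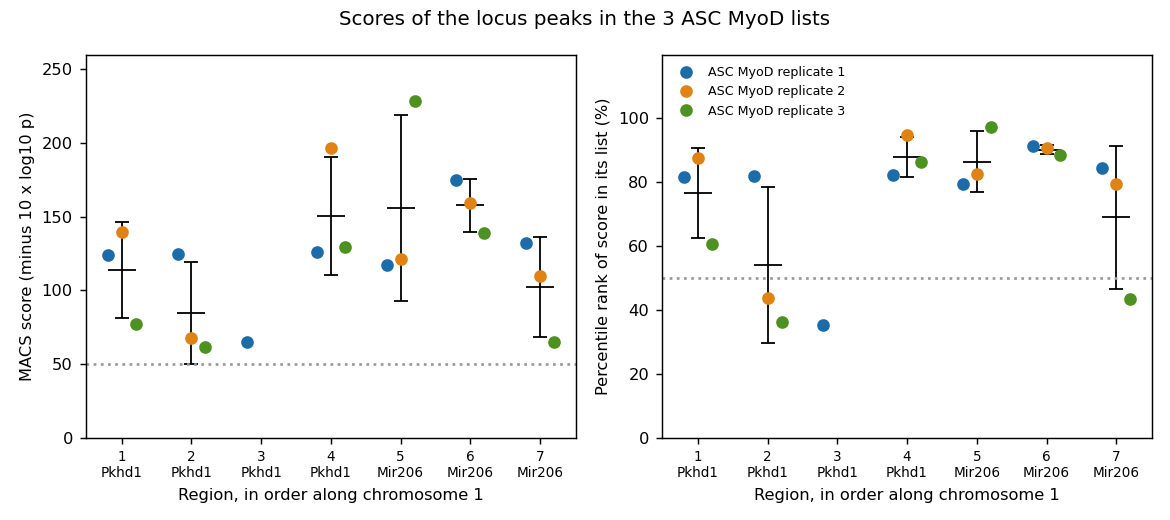
MACS scores (left) and percentile ranks of the score within its own list (right, in percent) of the 7 regions in order along chromosome 1, with a point per ASC MyoD library and black lines for the mean ± SD of 3 libraries. Dotted lines mark the lowest listed score of 50 and the middle rank. Region 6 has the tightest points and region 5 the highest single score, 229.

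The order of the regions by mean score was region 6 (158), region 5 (156), region 4 (151), region 1 (114), region 7 (102) and region 2 (84.7), with region 3 (65.2) in a single library. The score ranges of all neighbors among the 6 regions found in all 3 libraries overlapped, so that no step of this order exceeded the spread over libraries. Of the 15 pairs among these 6 regions, 3 had score ranges that did not overlap, namely region 2 with region 4, region 2 with region 6, and region 6 with region 7. On the scale of percentile rank, 4 pairs did not overlap, the added pair being regions 1 and 6. The same member of a pair scored higher in all 3 libraries in 6 of 15 pairs. Among these were neighbors in the order above, namely region 4 above region 1 and region 7 above region 2. The region with the highest score differed by library: region 6 in replicate 1, region 4 in replicate 2 and region 5 in replicate 3.

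Relative to their lists, 15 of the 19 peaks scored above the list median, with percentile ranks from 35.2% to 97.4%. The median percentile rank of the peaks of the locus was 81.9% in replicate 1, 85.1% in replicate 2 and 73.6% in replicate 3. Peak width ranged from 589 to 1072 bp. Regions 6 and 7 had the narrowest peaks of those in all libraries (mean 647 ± 32.1 and 656 ± 65.1 bp, SD, n = 3), and regions 4 and 5 the widest (1011 ± 26.2 and 1034 ± 63.5 bp). The median width of all peaks was 775 to 865 bp in these lists. Peaks of the same region overlapped closely, and the stretch shared by all 3 libraries made up 55.1% to 86.3% of the joined region, highest in region 4.

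Regions 4 to 7 crowded within 45.2 kb between the start of Pkhd1 and the Mir206 hairpin. Among the 1985 ASC MyoD regions found in at least 2 libraries, each of these 4 had the other 3 within 50 kb (center to center). In all, 2.02% of such regions had 3 or more others within 50 kb, 28.4% had at least 1 and 71.6% had none. Regions 1 and 2, within Pkhd1, had none. No peak given to any other gene lay between the regions of the locus. MACS numbers its peaks in order, and the numbers ran through the locus with 0 missing in each of the 3 libraries. Whether the numbers were given before or after any filter is not stated, so a peak removed earlier would not be seen.

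**Figure D4:**
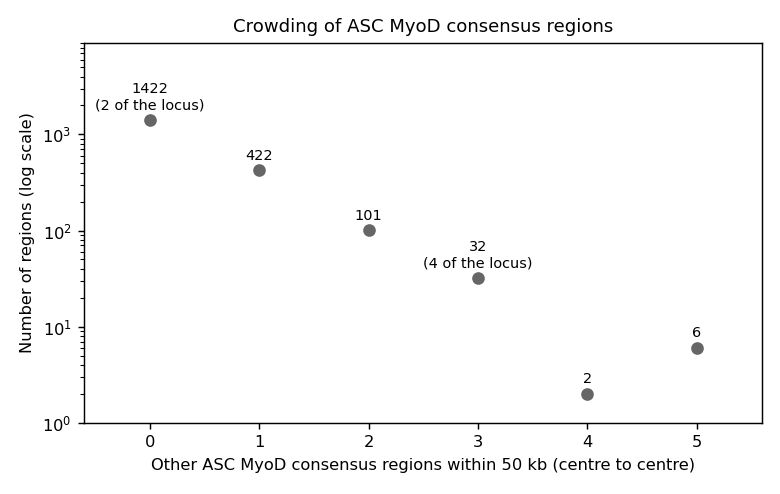
Number of ASC MyoD regions found in at least 2 libraries (y axis, log scale) by how many other such regions lay within 50 kb (x axis). The 4 regions between Pkhd1 and Mir206 are among the 32 with 3 others, and the 2 regions within Pkhd1 are among the 1422 with none.

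Among microRNA genes the number of regions at Mir206 stood alone in these lists. ASC-specific MyoD regions were given to 16 microRNA genes, 18 regions in all, and Mir206 was the 1 gene of them with more than 1 region. By mean percentile rank, regions 6, 5 and 7 took places 3, 5 and 8 of 18, and regions near Mir5133 (mean score 439) and Mir1969 (mean score 279) ranked above them. Host transcripts with symbols ending in hg were left out of this set. Among those left out was Mir133a-1hg, whose region had a mean percentile rank of 93.5%, above the 90.2% of region 6. Across all genes, 61 of the 1615 genes with an ASC-specific MyoD region had 3 or more of them (3.78%), and Mir206 and Pkhd1 with 3 each were among these.

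The genes most like Mir206 over the 12 libraries were found by the distance between their highest percentile ranks per library, with 0 where a gene had no peak. For Mir206, whose highest ranks were 91.5%, 90.6% and 97.4% in the 3 ASC MyoD libraries, these were Vti1a (distance 0.704 percentile points, ranks 91.3%, 90.5% and 96.7%), Palmd (2.28), Gm15816 (2.28), Gm12092 (2.35) and Gm15627 (2.52). For Pkhd1, with highest ranks of 82.4%, 94.8% and 86.4%, they were Safb (2.45), E2f2 (2.84), Dipk2a (3.88), Gm16184 (4.55) and Hdac4 (5.29). Mir133b had no peak and so no such comparison.

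The list of other muscle microRNA genes and their hosts did not hold Mir133a-1hg, a host transcript that was looked up after its values had been seen and that had MyoD peaks in all 3 ASC libraries (mean score 194 ± 46.9, SD, n = 3). Of the 17 names on the list, 15 were RefSeq symbols, so its shares are not over the same kind of set as the background. For MyoG, 0 of the 17 had an ASC-specific region, against 0.162% of 49997 RefSeq gene symbols. For MyoD, 2 of the 17 had one (11.8%, against 3.06%). The first was a distal region of Mir1a-1 (chr2:180393187-180393969), the miR-1 gene on chromosome 2, with peaks in 2 ASC MyoD libraries and scores of 55.7 and 62.8. The second was a distal region of Myh7b (chr2:155606128-155606970), the myosin gene that hosts miR-499, with scores of 70.3 and 54.8. Both had lower mean scores (59.2 ± 4.98 and 62.6 ± 10.9, SD, n = 2) than each of the regions of the microRNA locus found in 3 libraries. Myh7, a slow myosin and host of miR-208b, had a single MyoD peak (score 77.7) in 1 ASC library, and Ank1, which hosts miR-486, a single MyoG peak (score 54.8) in 1 QSC library.

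A minority of the listed targets of the locus had ASC-specific MyoD regions. The target lists were chosen with earlier results of these data known. Their shares stand beside a background of all gene symbols, many of which are pseudogenes or short genes that receive few peaks. The background is therefore not a like set, and nothing particular to the target lists was tested. Of 15 genes listed as targets of miR-206 and miR-1, 5 had an ASC-specific MyoD region (33.3%, against the 3.06% above), each in all 3 libraries, and 0 had one for MyoG. They were Utrn (utrophin, which can stand in for dystrophin, intron 1, mean score 224 ± 96.2, SD, n = 3), Met (the receptor of hepatocyte growth factor, intron 4, scores 252, 218 and 149), Hdac4 (a histone deacetylase that restrains muscle genes, intron 1, 142 ± 35.6), Ccnd1 (cyclin D1, within 2 to 3 kb of its start, 132 ± 42.4) and Igfbp5 (a binding protein of insulin-like growth factors, distal, 95.6 ± 25.6). Single peaks in 1 ASC MyoD library were given to Pax7, the transcription factor that marks MuSCs (score 51.8), and to Notch3, a Notch receptor (70.5). Of 8 genes listed as targets of miR-133, 2 had an ASC-specific MyoD region (25.0%), namely Runx2 (a bone transcription factor, intron 5, 178 ± 36.6, SD, n = 3) and Ptbp2 (a splicing regulator, exon 9, scores 60.0 and 52.2). Regions with a peak in 1 ASC MyoD library each were given to Egfr, a growth factor receptor (2 regions, scores 62.6 and 64.8), and to Igf1r, the receptor of insulin-like growth factor 1 (51.7). Ptbp2 also had 2 MyoG peaks in ASC replicate 1 (scores 51.7 and 50.5).

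Among 16 transcription factors known to act in the myogenic program, several of which were already known to carry peaks in these lists, 6 had an ASC-specific MyoD region (37.5%, against 3.06% of all gene symbols) and 0 had one for MyoG (against 0.162%). These were Myod1, Myog, Mef2a, Mef2c, Tcf4 and Tcf12, of which the last 2 encode E proteins, the dimer partners of MyoD. Mef2c, whose protein family recognizes the MEF2 motif printed above, had 3 such regions, among them a promoter region with scores of 129.8, 126 and 79.5 (mean 112 ± 28.1, SD, n = 3). Mef2a, of the same family, had ASC-specific MyoD regions with mean scores of 107, 258 and 91.5. The Myog region had peaks in 2 libraries, with scores of 50.7 and 54.2, near the lowest listed score of 50.0. Single MyoG peaks in 1 ASC library each were given to Myod1 (score 54.0), Mef2a (51.7) and Tcf12 (92.5). In the QSC libraries, Tcf4 had a MyoD peak (59.7) and Mef2c a MyoG peak (58.5), each in 1 library. These shares stand beside a background that counts all gene symbols, many of which are pseudogenes or short genes that receive few peaks, and nothing particular to the lists was tested.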

How the data were processed

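Per the labels, the authors aligned reads to mm10 with BWA 0.7.5 and called peaks with MACS. The MACS version, the use of input libraries and any peak filter are not given in the sources used here. The deposited score is the log10 of the MACS p-value multiplied by -10, and other deposited values are start and end positions in bp (unit: other). Depth is unknown, and a score depends on it. Peaks sharing at least 1 bp were joined (Python 3.11.15, pandas 2.3.3), which was tested on simulated lists. Groups and replicate numbers came from the sample titles, and replicate libraries may share animals. Ranks were taken within each list. RefSeq tables of GRCm38.p6 gave positions and sequences. Named genes were the members, list genes with an ASC-specific region, and the 5 most alike genes per member. The members, gene lists, motifs and Lincmd1 were chosen with earlier results of these data known. Alternatives changed score, overlap, number of libraries, replicates, window, rank and likeness.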

Additional observations from a re-analysis of the deposited data

How the results depend on the processing

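Of 52 values recomputed under an alternative, 49 stayed within the spread between libraries or within 1.5 times the main count. Many of these had no way to move. The 18 mean scores taken without a replicate must stay within the spread of 3 libraries. The 6 ASC-specific MyoD regions became 5 at a score of at least 80, 7 with a peak in at least 1 library, and 4 among all peaks within 50 kb of the Mir206 regions. They stayed at 6 with other merging rules. They also stayed at 6 with a peak in all 3 libraries and without each replicate, as regions present in all 3 libraries must. The count for MyoG was 0 throughout, which was fixed because no list held a MyoG peak at the locus. The 7 regions became 6 at the stricter score and without replicate 1, and 5 in the window. Likeness by number of peaks shared 0 of 5 genes with likeness by rank, for Mir206 and for Pkhd1. By number, the 5 genes were tied at distance 0 for Mir206 and at 1.00 for Pkhd1. Ties were ordered by symbol, so this overlap is a weak measure of how far likeness depends on the rule. The rank of region 3 moved to 36.4% within distal peaks. No paired analysis was possible because the locus was selected on these scores and given no test. The order of regions within each library is given only as a description. Motif counts over whole or central region sequence were not run, since no genome was used here. Unknown depth limits every absence.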

Other observations

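Another mouse locus that pairs a miR-1 gene with a miR-133 gene lies on chromosome 18. Its host transcript Mir133a-1hg was not on the gene lists but was looked up after its peaks had been seen. A promoter region of Mir133a-1hg had MyoD peaks in all 3 ASC libraries, with scores of 198, 238 and 144 in replicates 1, 2 and 3 (mean 194 ± 46.9, SD, n = 3), and in no QSC library. These scores overlapped those of region 6, at the start of Lincmd1. The percentile ranks were 93.8%, 97.2% and 89.4%. Here and in region 6 the region lay at the start of a host transcript. The region near Mir1a-1 on chromosome 2 was distal and had peaks in 2 libraries with low scores. The start of a host transcript of Mir1a-1 was not examined.

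Few peaks of other genes lay within 1 Mb of the regions. Tram2, which encodes a protein of the translocation machinery of the endoplasmic reticulum, had a MyoD peak in intron 4 in ASC replicates 1 and 2 (scores 66.2 and 55.3), 330.5 and 330.4 kb away. Kcnq5, a potassium channel gene, had a MyoD peak in ASC replicate 3 (score 51.5), and Tfap2b, a transcription factor gene, a MyoG peak in ASC replicate 2 (score 50.8). No peak in the 12 lists was given to the interleukin genes Il17a and Il17f or to the replication gene Mcm3, the next genes beyond Mir133b.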
